A study of Mus musculus with 33 samples.

Results

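Dorsal skin of C57BL/6 mice in mid anagen was compared with dorsal skin in early anagen of the same natural hair cycle. Mid anagen was represented by the 3 arrays of postnatal day 27 (P27), and early anagen by the 4 arrays of P23 and P25 (2 each), so that 7 of the 33 arrays of the series were used, chosen by the day in their titles. All animals were wild type and had not been depilated, and this is the second hair cycle of the animal, which follows the first resting phase. Each array was hybridised with RNA from whole upper-mid back skin of a separate mouse, taken between noon and late afternoon. Skin was taken whole, with follicles, epidermis, dermis, fat and the thin muscle under the skin together. The sexes were 2 males and 1 female at P27, 2 males at P23, and 1 male and 1 female at P25. The remaining arrays of the series cover late anagen, catagen and telogen of the natural cycle and a cycle induced by depilation, and were used only to set a common signal filter and for the values named as such. Expression was measured as MAS 5.0 signal, the array manufacturer's summary of a probe set's fluorescence intensity.

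Anagen is the growth phase of the hair follicle. In early anagen the secondary hair germ proliferates and the follicle grows down into the dermis and the fat below it. Around mid anagen the matrix, a collar of dividing epithelial cells that encloses the dermal papilla, begins to give rise to the concentric layers of the inner root sheath and, inside it, to the medulla, cortex and cuticle of the hair shaft. The shaft hardens as hair keratins assemble into filaments and are embedded in keratin-associated proteins, small proteins rich in cysteine or in glycine and tyrosine that are cross-linked through disulphide bonds.

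Median signals over all probe sets were 139.5, 133 and 139.2 on the P27 arrays, 125.9 and 126.1 at P23, and 111.2 and 127 at P25. With the deposited scaling, each P27 array thus had a higher median than every early anagen array. Sex-linked genes matched the labelled sex on each array. Of 45037 probe sets, 26988 lay above their own array's median on at least 3 arrays of the series and were tested, and 12867 genes were each represented by their brightest probe set. Signals under a floor of 34.6 were set to it before log2 transformation, which touched 0.941% to 3.73% of the tested values on an array. P27 replicate 3, the female, stood between the groups. On the first principal component, which held 62.7% of the variance of the 7 arrays, P27 replicates 1, 2 and 3 scored -85.42, -78.25 and -32.06, against 54.37 and 37.46 for the P23 arrays and 77.24 and 26.67 for the P25 arrays. Its signal was the closest of the P27 arrays to early anagen in 636 of the 801 genes called higher and in 1029 of the 1620 called lower. As the only female of P27, its sex and the array itself cannot be told apart there. At P25 the female array, replicate 1, scored 77.24 and the male 26.67, so that the female lay on the early anagen side of the males of its day in both cases. With sex as a covariate, 3458 genes were called, 1134 higher and 2324 lower, against 801 and 1620 without it. Each call below was repeated with each array left out in turn, and a call is described as kept where it held in all 7 of those fits.

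Defining markers of the tissues in whole skin were present on all 7 arrays, with lowest signals of 13532.7 for Krt14 (basal keratinocytes), 14984.5 for Dcn (fibroblasts), 6673.2 for Adipoq (adipocytes), 13781.1 for Ckm (skeletal muscle) and 412.3 for Ptprc (leukocytes). Some of the markers that the study used for tissue composition moved with the comparison. The suprabasal Krt1 fell by 1.16 ± 0.16 on the log2 scale (SE, limma adjusted p = 0.00603), the mesenchymal Vim by 0.82 ± 0.17 (adjusted p = 0.0173) and S100a4 by 1.35 ± 0.30 (adjusted p = 0.0218). The cornified cell genes did not pass by the probe sets of the study, with Flg at 0.36 ± 0.27 (adjusted p = 0.382) and Lor at -0.38 ± 0.11 (adjusted p = 0.0515). By the probe sets of the study, the 3 myocyte markers did not move alike. Des fell by 1.27 ± 0.26 (adjusted p = 0.0178), Mef2a had a difference of -0.615 ± 0.156 (adjusted p = 0.0331), and Mef2c differed by -0.03 ± 0.22 (adjusted p = 0.927). Another probe set of Mef2c, its brightest, did pass the test, a call lost in 5 of the 7 fits with 1 array left out (adjusted p = 0.0539 to 0.11). The calls of Vim, S100a4 and Des were lost without P27 replicate 1 or 2 (adjusted p = 0.0701 to 0.0874). The call of Mef2a by its brightest probe set was lost in the same fits (adjusted p = 0.0693 to 0.075). In whole skin, fewer cells of a type and less RNA per cell cannot be told apart.

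Mid anagen skin carried more RNA for the hair shaft and inner root sheath, and less for the dermal matrix, blood vessels, leukocytes and muscle. In the limma fit, 801 genes (6.23% of those tested) were higher and 1620 (12.6%) were lower in mid anagen at an adjusted p below 0.05. The counts over probe sets ran the other way, with 5320 called (19.7%), of which 2818 were higher (10.4%) and 2502 lower (9.27%). Among the 3103 probe sets with no gene symbol 742 were higher and 142 lower, and among the 10392 further probe sets of genes already represented 1234 were higher and 703 lower. The 162 genes whose higher call was kept (1.26%) and the 285 whose lower call was kept (2.21%) had no overlap between the groups, which held for 11.9% of all genes in the higher direction and 23.7% in the lower. Over probe sets, 3.39% kept a higher call and 1.62% a lower one. The median difference over all genes was -0.10 on the log2 scale.

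The 10 largest rises among kept calls included 5 genes with at least 1 early anagen array under the floor. Sptssb, a small subunit of the enzyme that begins sphingolipid synthesis, had signals of 2141, 2045 and 628 on the P27 arrays, against 32.6 and 50.1 on the P23 arrays and 80.7 and 109.7 on the P25 arrays, a difference of at least 4.48 on the log2 scale (adjusted p = 0.00416). Crym, which binds thyroid hormone in the cell, had signals of 11176, 11774 and 4229 at P27, against 231 and 584 at P23 and 543 and 1267 at P25, and rose 14.9-fold (3.90 ± 0.59 on the log2 scale, SE; adjusted p = 0.00779). In both genes the lowest P27 array, replicate 3, still lay above every early anagen array. Cryba4, a crystallin, rose by at least 4.35 and Pinlyp, a small secreted protein of the phospholipase inhibitor family, by 3.74 ± 0.51. The gap junction gene Gja3 rose by at least 3.40, the serine protease gene Tmprss11e by at least 3.40, and the peptide hormone gene Sct by at least 3.33. Upp1, which splits uridine, rose by 3.31 ± 0.42, the ETS factor gene Elf5 by 3.25 ± 0.50, and Fbp1, an enzyme of gluconeogenesis, by 3.24 ± 0.45. The adjusted p of these 8 genes ran up to 0.00849.

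The 10 largest falls among kept calls came from several tissues. Slc25a48, a mitochondrial carrier, lay under the floor on all 3 P27 arrays, against 247.8 and 209.9 at P23 and 212.9 and 278.3 at P25, a difference of -2.77 or lower (adjusted p = 0.000824). Prkag3, a subunit of AMP-activated kinase known from skeletal muscle, had signals of 45.3, 74.9 and 88.7 in mid anagen, against 616 and 254 at P23 and 510 and 268 at P25 (-2.51 ± 0.38, adjusted p = 0.00781). The groups did not overlap in either gene. Plcd4, a phospholipase C, fell by 2.50 or more and Rtl3, a gene derived from a retrotransposon, by 2.43 or more, with 2 of the P27 arrays under the floor in each. Twist1, a transcription factor of mesenchymal cells, had signals of 133.0, 153.8 and 265.1 at P27, against 615.2 and 651.3 at P23 and 1145.4 and 650 at P25, and was 4.21-fold lower (-2.07 ± 0.31, adjusted p = 0.00727). Eln, which encodes elastin, fell by 1.86 ± 0.33, the protease inhibitor gene Serpinb12 by 1.84 ± 0.23, and 2 more genes had a difference of -1.80: Cdon, a hedgehog coreceptor (SE 0.21), and Kdelr3, a receptor that returns proteins to the endoplasmic reticulum (SE 0.22). Npas2, a partner of BMAL1 in the clock, fell by 1.85 or more, with 2 P27 arrays under the floor.

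**Figure D1:**
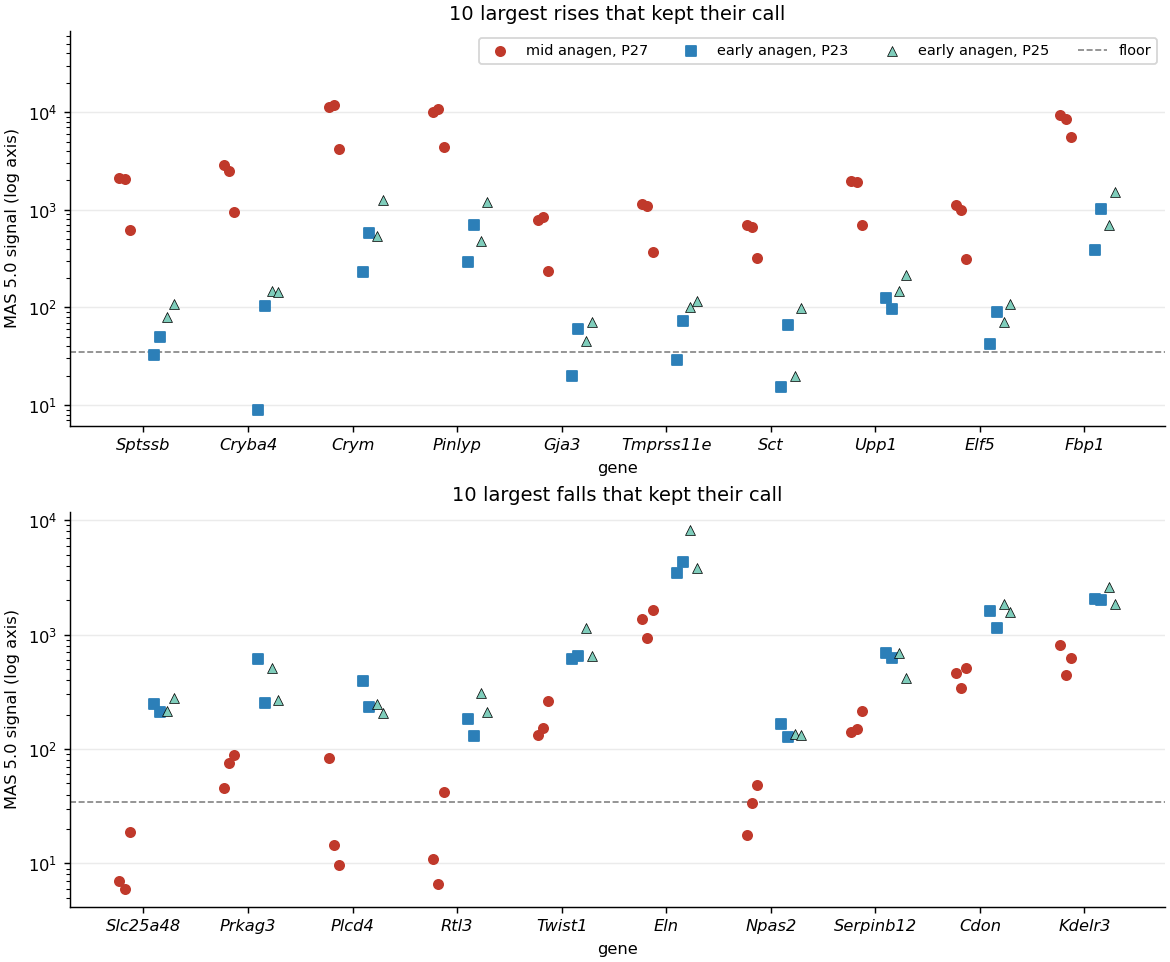
MAS 5.0 signal on a log axis in the 3 mid anagen arrays (P27, circles) and the 4 early anagen arrays (P23, squares; P25, triangles) for the 10 largest rises (upper panel) and the 10 largest falls (lower panel) whose calls were kept without each array. The dashed line is the floor of 34.6, and in each gene all P27 arrays lie on one side of all early anagen arrays.

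The sequences just before the start sites of some keratin and keratin-associated protein genes are shown because most members of these families held 1 element that few other genes held. RefSeq promoters (GRCm38.p6) matched 10343 of the 12867 genes. The motif TATAAA, the core of a TATA box, was searched on the gene's strand with its first base 40 to 20 bases before the start. It was in 2.26% of the promoters of all measured genes and in 2.41% of all promoters of the table. Among genes called higher in mid anagen, 56 of 618 (9.06%) held it, and among genes called lower 25 of 1268 (1.97%), so most genes that rose had no match. Of the keratin-associated protein genes 21 of 35 (60%) and of the inner root sheath keratins 5 of 7 (71.4%) held it, as did 3 of 5 type I hair keratins (60%). Other genes of the shaft held it less: 0 of 2 type II hair keratins and 3 of 20 genes of the cortex, cuticle and medulla (15%). It was in 3 of 40 genes of dermal fibroblasts and matrix (7.5%) and in 0 of 25 collagen chains. These counts depend on the window and on the annotated start. Krt33b and Krtap13-1, counted as without a match, held TATAAA farther before the start than the window reached. Members of these families lie side by side on the chromosome and share sequence, so they are not separate instances. The 60 bases before the start of 3 type I hair keratins, 3 keratin-associated proteins and 2 inner root sheath keratins follow, with TATAAA in capitals, and then those of 2 genes with no such match, the type I hair keratin Krt36, which rose, and Twist1, which fell.
Krt32 (chr11:100088270-100088329, minus strand): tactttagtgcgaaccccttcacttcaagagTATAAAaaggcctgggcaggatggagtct
Krt31 (chr11:100050552-100050611, minus strand): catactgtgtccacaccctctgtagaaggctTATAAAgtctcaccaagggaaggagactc
Krt34 (chr11:100041555-100041614, minus strand): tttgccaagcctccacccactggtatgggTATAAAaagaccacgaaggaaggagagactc
Krtap17-1 (chr11:99993995-99994054, minus strand): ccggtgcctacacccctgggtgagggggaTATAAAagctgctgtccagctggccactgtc
Krtap9-3 (chr11:99598107-99598166, minus strand): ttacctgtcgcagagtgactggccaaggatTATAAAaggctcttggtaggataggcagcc
Krtap11-1 (chr16:89571184-89571243, minus strand): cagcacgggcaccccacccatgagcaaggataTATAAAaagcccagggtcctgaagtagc
Krt25 (chr11:99322952-99323011, minus strand): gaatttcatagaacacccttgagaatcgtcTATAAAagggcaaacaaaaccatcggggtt
Krt28 (chr11:99374904-99374963, minus strand): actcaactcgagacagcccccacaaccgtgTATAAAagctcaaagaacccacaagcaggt
Krt36 (chr11:100105627-100105686, minus strand): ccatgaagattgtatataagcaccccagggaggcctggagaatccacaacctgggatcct
Twist1 (chr12:33957611-33957670, plus strand): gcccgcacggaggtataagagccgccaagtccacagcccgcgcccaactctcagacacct
In the 8 sequences with a match, the first base of TATAAA lay at positions -31 to -28 from the start.

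Hair keratins, the filament proteins of the shaft, rose together. All 7 measured type I hair keratins were called higher, with a median difference of 4.74. Of 5 type II hair keratins 4 were called higher (80%), with a median of 4.38. Over all genes the share called higher was 6.23%. Krt32, a cuticle keratin, had signals of 5412, 6099 and 1929 in mid anagen, against 253 and 405 at P23 and 448 and 785 at P25 (3.20 ± 0.49, adjusted p = 0.00813), and Krt36 had 1790, 2157 and 712, against 114 and 211 at P23 and 144 and 290 at P25 (2.98 ± 0.45, adjusted p = 0.00779). These were the 2 hair keratins whose calls were kept. Krt31, a cortex keratin, had signals of 20619, 21109 and 3692 at P27, against 46.6 and 304 at P23 and 818 and 1591 at P25. All 3 P27 arrays lay above the early arrays, but the 4 early values spread over more than an order of magnitude, and its call (4.99 ± 1.21, adjusted p = 0.0292) was lost without P27 replicate 1, P27 replicate 2 or P23 replicate 2 (adjusted p = 0.0609 to 0.108). Krt35, an early keratin of the matrix, cortex and cuticle, was already at 1643 and 3514 at P23 and 1499 and 4134 at P25, and reached 14563, 12858 and 7386 in mid anagen (2.19 ± 0.42, adjusted p = 0.0152, lost without P27 replicate 1 or 2). Among type II keratins, the cuticle keratin Krt82 rose by at least 4.38 and Krt83 by 4.66 ± 1.03, both lost without P27 replicate 1 or 2 (adjusted p = 0.0764 to 0.0874), and Krt84 had a difference of 2.55 that did not pass. Without P27 replicate 3 all 7 type I and all 5 type II hair keratins were called, without P27 replicate 1 or 2 the counts were 2 and 0, and without P23 replicate 2 they were 3 and 2. Without P23 replicate 1, 2 type II keratins were called.

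Keratin-associated proteins made the steepest rise of the 45 gene lists. Of 37 measured members, 34 were called higher (91.9%, beside 6.23% over all genes) and none lower. The median difference was 5.07, with a range of 2.67 to 5.95. In 18 members at least 1 early anagen array lay under the floor, so for those the difference is a lower bound. Krtap17-1, of the cuticle, had signals of 11151, 13500 and 3270 in mid anagen, against 63.6 and 289 at P23 and 505 and 1316 at P25 (4.57 ± 0.99, adjusted p = 0.0206). Krtap11-1, of the cortex, had 19551, 19711 and 4306, against 37.8 and 183 at P23 and 1012 and 2211 at P25 (5.07 ± 1.36, adjusted p = 0.039). Both genes were higher in each P25 array than in either P23 array. Krtap17-1 lost its call without P27 replicate 1 or 2 (adjusted p = 0.0811 to 0.0826) and Krtap11-1 also without P23 replicate 1 or 2 (adjusted p = 0.0541 to 0.132). Krtap19-1, of the glycine-tyrosine group, had 13824, 17030 and 748 at P27, against 30.1 and 17.5 at P23 and 136 and 833 at P25, and is 1 of 8 members in which P27 replicate 3 lay under an early anagen array. No member kept its call: without P27 replicate 1 or 2, 0 of the 37 were called, without P23 replicate 1 or 2, 1 and 3, without P25 replicate 1, 19, and without P27 replicate 3, 35.

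The rise was under way within early anagen. All 37 keratin-associated proteins were higher at P25 than at P23 and higher again at P27. Their median signal was 56.3 at P23, 634 at P25, 6470 at P27 and 22600 at P29, in late anagen. The type I hair keratins had medians of 155, 1030, 9610 and 28100 on the same days, and all 7 rose at both early steps. The families of keratin-associated proteins followed the same course. The 14 high glycine-tyrosine members had medians of 38.6 at P23, 712 at P25 and 7880 at P27, and the 13 ultrahigh sulphur members 56.3, 422 and 4500. The 2 days of early anagen differed from each other by a median of 3.45 on the log2 scale in these genes, against 3.30 between P25 and P27.

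**Figure D2:**
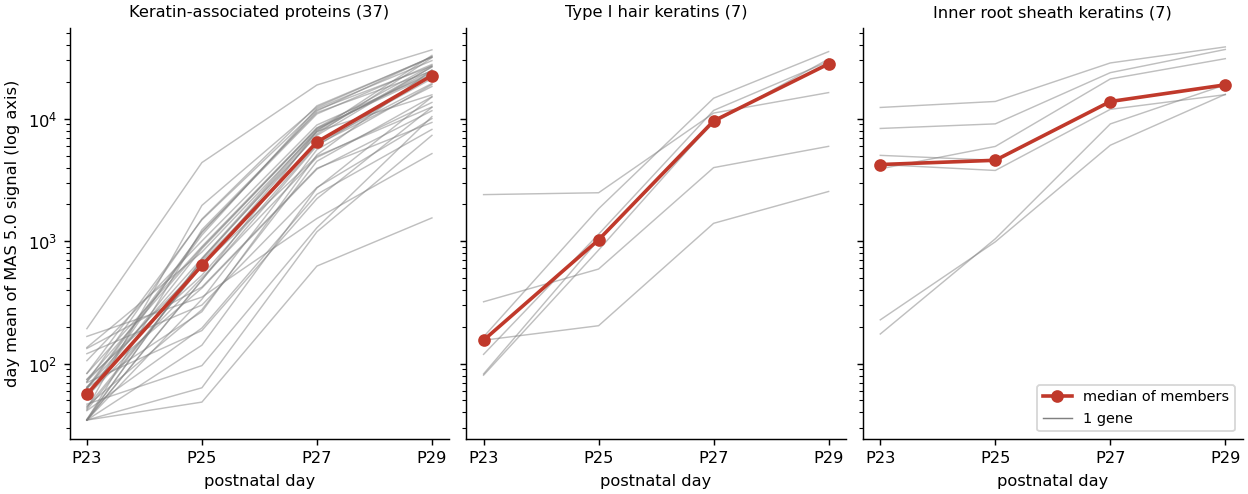
Day means of MAS 5.0 signal (log axis) at P23 and P25 (early anagen), P27 (mid anagen) and P29 (late anagen) for each member (grey) and the median (red) of 3 gene lists. The median of the 37 keratin-associated proteins was 56.3 at P23 and 6470 at P27, and that of the 7 inner root sheath keratins was 4230 and 13800 on the same days.

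Other genes of the cortex, cuticle and medulla rose as well. Of 24 measured, 20 were called higher (83.3%, beside 6.23% over all genes) and none lower (median 2.40). Of these calls 9 were kept, which were also the 9 called without P27 replicate 1 or without P27 replicate 2. Fbp1 had signals of 9388, 8470 and 5576 at P27, against 385 and 1013 at P23 and 702 and 1537 at P25. Padi3, which converts arginine to citrulline in the medulla and sheath, had 11188, 11332 and 4648, against 453 and 1256 at P23 and 604 and 1868 at P25 (3.23 ± 0.55, adjusted p = 0.0104). Selenbp1, a selenium-binding protein, had 4716, 4325 and 1705, against 732 and 583 at P23 and 897 and 848 at P25 (2.11 ± 0.36, adjusted p = 0.0106). In all of these the P27 arrays lay above the early arrays, with replicate 3 the lowest of the P27 arrays. Gjb6, a gap junction protein whose human gene is mutated in a hair loss syndrome, rose by 2.36 ± 0.33 (adjusted p = 0.00633), and Sprr1a, a cross-linked protein of cornified envelopes, by 2.04 ± 0.33 (adjusted p = 0.0094). Members of this list that did not pass were Calml3, Adgra3, Lrrc15 and Dsc2, with differences of 0.21, 0.35, 1.26 and 2.07.

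Inner root sheath genes were well above the floor in early anagen and differed less. Of its 7 measured keratins (median 1.58) 6 were called higher (85.7%, beside 6.23% over all genes). Krt25 had signals of 30267, 30820 and 25098 in mid anagen, against 9669 and 15859 at P23 and 8813 and 21804 at P25 (1.13 ± 0.32, adjusted p = 0.0449, lost in 6 of 7 fits with 1 array left out, adjusted p = 0.0634 to 0.139). Krt27 rose by 2.14 ± 0.43 and lost its call without P27 replicate 1 or 2 (adjusted p = 0.0688 to 0.0708). A pair of members started low: Krt26 had 12118, 12250 and 5051 at P27, against 78.7 and 387 at P23 and 657 and 1669 at P25 (4.41 ± 0.94, adjusted p = 0.0196), and Krt72, of the sheath cuticle, rose by 3.68 ± 0.82 (adjusted p = 0.0224), both lost without P27 replicate 1 or 2 (adjusted p = 0.0778 to 0.0879). No keratin of this list kept its call: without P27 replicate 1 or 2, 0 were called, and without P23 replicate 1, 3. Of 22 genes for sheath proteins and cornification enzymes, 9 were higher (40.9%) and 2 lower (9.09%), beside 6.23% and 12.6% over all genes. Without P27 replicate 1 or 2 and P23 replicate 1 in turn the higher count was 2, 2 and 5. Dsc1, a desmosomal cadherin, was the most even, with 9858, 10013 and 9110 in mid anagen, against 4122 and 4605 at P23 and 4347 and 5645 at P25 (1.05 ± 0.14, adjusted p = 0.00522). Tchh, which encodes the sheath protein trichohyalin, rose by 1.71 ± 0.40 and its relative Tchhl1 by 4.67 ± 1.19. Both calls were lost without P27 replicate 1 or 2, and that of Tchhl1 also without P23 replicate 1 or 2 (adjusted p = 0.0582 to 0.122). Alox12b, a lipoxygenase needed for the lipid envelope of the epidermis, went the other way, with 260, 154 and 252 at P27, against 544 and 534 at P23 and 520 and 417 at P25 (-1.21 ± 0.21, adjusted p = 0.011).

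Transcription factors of matrix and shaft changed in both directions. Of 55 measured, 15 were higher (27.3%) and 5 lower (9.09%), beside 6.23% and 12.6% over all genes, and 6 of these calls were kept. The higher count was 2 without P27 replicate 1 or 2 and 6 without P23 replicate 1. Elf5 had signals of 1110, 989 and 310 at P27, against 42.1 and 89.8 at P23 and 70.9 and 110 at P25. Prdm1, a repressor expressed in inner root sheath and dermal papilla, had 2012, 2300 and 1404, against 887 and 857 at P23 and 831 and 990 at P25 (1.07 ± 0.18, adjusted p = 0.0105). Factors with known roles in hair keratin expression also rose: Foxn1, which is mutated in nude mice, by 1.87 ± 0.47 (adjusted p = 0.0331), Hoxc13, which activates hair keratin genes, by 1.16 ± 0.27 (adjusted p = 0.0251), Msx2 by 1.40 ± 0.31 (adjusted p = 0.0212) and Foxq1, which acts in the medulla, by 1.71 ± 0.36 (adjusted p = 0.0192). These 4 calls were lost without P27 replicate 1 or 2, those of Foxn1, Hoxc13 and Msx2 also without P23 replicate 1, and that of Foxn1 without P25 replicate 1 (adjusted p = 0.0513 to 0.122). The 4 kept falls were those of Sox18, a factor of vessels and dermal papilla (428.8, 442.3 and 802.2 at P27, against 1747.1 and 1787.1 at P23 and 1269 and 1861.3 at P25, -1.63 ± 0.25), Satb1 (-1.16 ± 0.20), Pou2f3 (-1.10 ± 0.15) and Lhx2, a factor of hair germ and stem cells (1630, 2306 and 2335, against 3733 and 3825 at P23 and 3534 and 4385 at P25, -0.90 ± 0.16), with adjusted p of 0.00634 to 0.0125.

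**Figure D3:**
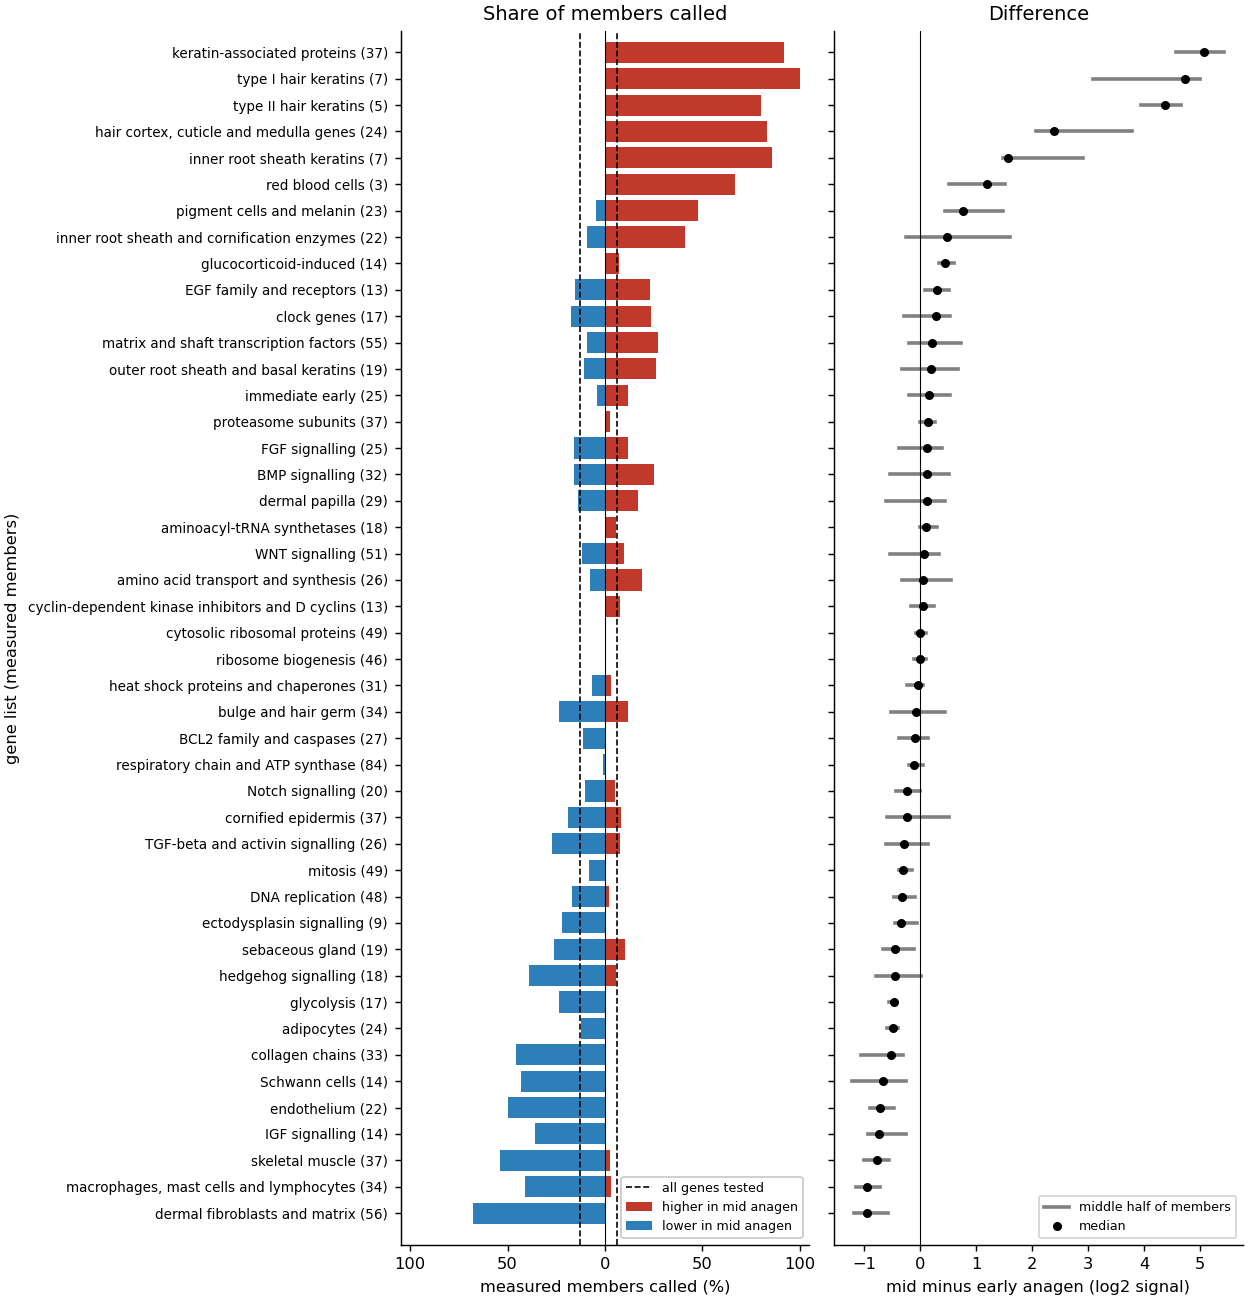
Each of 45 gene lists, with the number of measured members in brackets: the share of members called higher or lower in mid anagen (left, bars, %; dashed lines are the 6.23% and 12.6% of all genes tested) and the median with the interquartile range of the members' differences (right, log2 signal). Lists run from keratin-associated proteins (median 5.07) at the top to dermal fibroblasts and matrix (median -0.95) at the bottom.

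Among signalling pathways, BMP genes are described by role. BMPs are secreted factors that act through SMAD proteins and are held back outside the cell by antagonists. All 9 measured response genes lay above 0 and 5 were called higher, none of the 6 receptors and transducers was called, and of 10 secreted antagonists and modulators 9 lay below 0 and 5 were called lower. Over all genes, 5088 of 12867 lay above 0. These roles were assigned after the values were seen, so the split by role is a description and no evidence of its own. It depends on the placement of Bambi and Smad6, which were counted as response genes although their products are inhibitory. The pseudoreceptor gene Bambi, induced by BMP, had signals of 4022, 3908 and 2343 in mid anagen, against 535 and 812 at P23 and 405 and 810 at P25 (2.44 ± 0.31, adjusted p = 0.00495), and Smad6, an inhibitory SMAD, had 1354, 1200 and 732, against 410 and 462 at P23 and 312 and 407 at P25 (1.43 ± 0.24, adjusted p = 0.00996). Of the ligands, Bmp8a rose by 1.99 ± 0.34 (adjusted p = 0.0111, lost without P27 replicate 2, adjusted p = 0.0505). Sostdc1, a secreted antagonist of BMP and WNT, had 1703, 2181 and 2606, against 4044 and 5283 at P23 and 4524 and 4349 at P25 (-1.09 ± 0.17, adjusted p = 0.00882). Nbl1 had 335, 338 and 408, against 866 and 928 at P23 and 1323 and 699 at P25 (-1.37 ± 0.22, adjusted p = 0.00878). The groups did not overlap in any of these genes. Over the 32 genes of the list, 8 were higher (25%) and 5 lower (15.6%), beside 6.23% and 12.6% over all genes. These counts were 3 and 2 without P27 replicate 1 or without P23 replicate 1, 2 and 2 without P27 replicate 2, and 5 and 3 without P25 replicate 2.

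**Figure D4:**
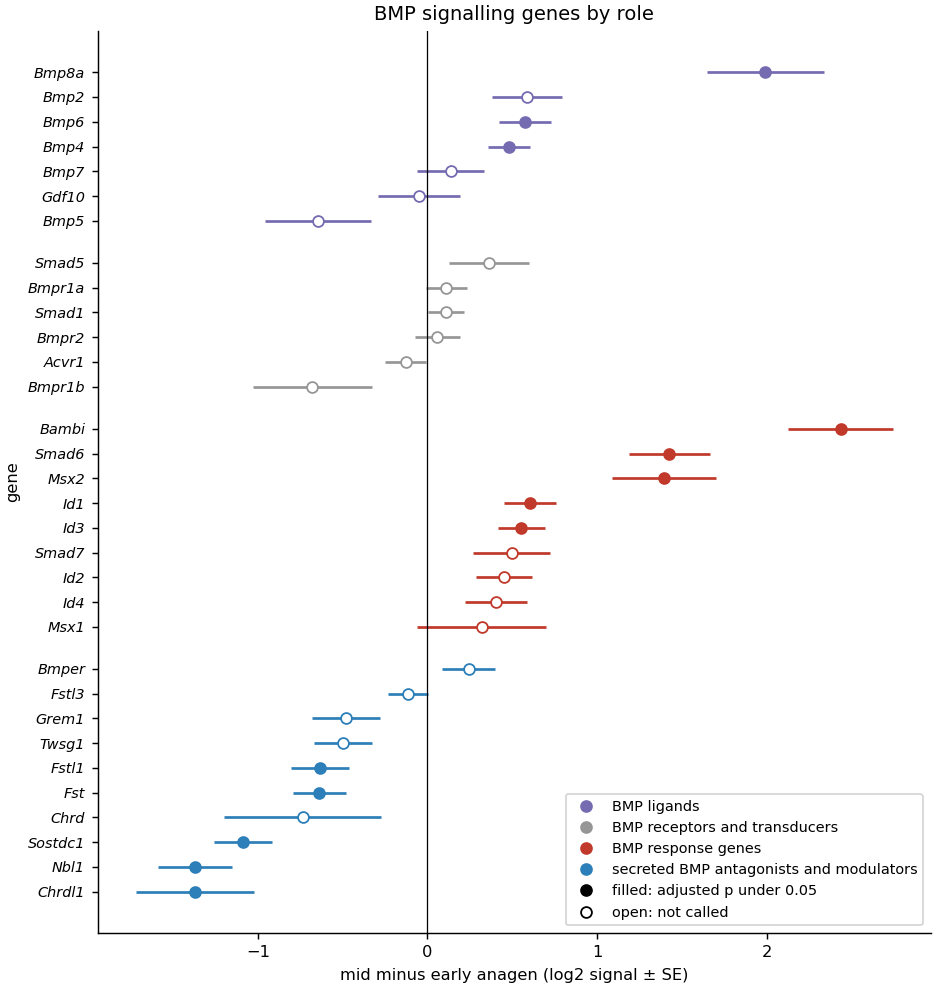
Difference between mid and early anagen (log2 signal, with the standard error of the limma fit as bars) for the 32 measured BMP signalling genes. They are grouped by roles that were assigned after the values were seen. Filled points passed the test: the 5 filled response genes lie to the right of 0 and the 5 filled antagonists to the left.

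Hedgehog signalling drives the downgrowth of the follicle. Of 18 genes, 7 were lower (38.9%, beside 12.6% over all genes) and 1 higher (5.56%, beside 6.23%). Among the lower, 5 belonged to the 8 receptors and coreceptors. Shh, the ligand made by the matrix, had signals of 1888, 2453 and 2970 at P27, against 2760 and 3435 at P23 and 1870 and 4406 at P25, and the groups overlapped (-0.31 ± 0.30, adjusted p = 0.488). The coreceptor Cdon had 466, 343 and 508, against 1600 and 1138 at P23 and 1841 and 1568 at P25 (-1.80 ± 0.21, adjusted p = 0.00368). Disp1, which releases the ligand from the cell, fell by 1.10 ± 0.15 (adjusted p = 0.00569) and Evc, which acts beside Smoothened at the cilium, by 1.07 ± 0.18 (adjusted p = 0.0101). The receptor and target gene Ptch1 had 3390, 4123 and 5676, against 7753 and 8010 at P23 and 6910 and 9747 at P25 (-0.90 ± 0.20, adjusted p = 0.0225, lost without P27 replicate 1 or 2 or P23 replicate 1, adjusted p = 0.0536 to 0.0859). Gli3, the chief repressor among the GLI factors, rose, with 1615, 1750 and 1690, against 976 and 1046 at P23 and 881 and 1067 at P25 (0.77 ± 0.12, adjusted p = 0.00759). Without P27 replicate 1 or 2 the lower count of the list was 3.

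WNT signalling, which specifies the matrix and shaft lineages, had 5 genes higher (9.8%) and 6 lower (11.8%) of 51. These shares lie near the 6.23% and 12.6% over all genes. Leaving out P27 replicate 1 gave counts of 1 and 3, leaving out P27 replicate 2 gave 0 and 2, leaving out P23 replicate 1 gave 3 and 2, and leaving out P25 replicate 1 gave 2 higher. Rspo1, a secreted enhancer of WNT signalling, was the most even fall, with 234, 232 and 210 at P27, against 519 and 547 at P23 and 576 and 534 at P25 (-1.27 ± 0.11, adjusted p = 0.00184). Wnt11 rose by 1.11 ± 0.24 (adjusted p = 0.0194, lost without P27 replicate 1 or 2, adjusted p = 0.0746 to 0.0804), and Wls, which carries WNT proteins to the cell surface, by 0.61 ± 0.10 (adjusted p = 0.0108, lost without P27 replicate 2, adjusted p = 0.051).

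Growth factors of other families showed single genes with clear changes. In the FGF list, 3 of 25 were higher (12%) and 4 lower (16%), beside 6.23% and 12.6% over all genes. Fgf22 had signals of 921, 930 and 473 at P27, against 175 and 161 at P23 and 171 and 220 at P25 (2.04 ± 0.26, adjusted p = 0.00496). Fgf11, which stays in the cell, had 86.8, 82.5 and 86.1, against 233.5 and 218.6 at P23 and 219.9 and 133.6 at P25 (-1.21 ± 0.20, adjusted p = 0.0105). Fgf5, whose loss gives long hair in angora mice, rose by at least 1.48 (adjusted p = 0.022, lost without P27 replicate 1 or 2 or P23 replicate 1, adjusted p = 0.053 to 0.0738). In the EGF list, 3 of 13 were higher (23.1%) and 2 lower (15.4%). Tgfa, whose loss gives wavy hair, had 1372, 1591 and 845, against 319 and 411 at P23 and 354 and 484 at P25 (1.66 ± 0.25, adjusted p = 0.00733). Errfi1, a feedback inhibitor of the EGF receptor, had 3882, 4530 and 4443, against 1435 and 1931 at P23 and 1404 and 1578 at P25 (1.44 ± 0.15, adjusted p = 0.00255). P27 replicate 3 was the lowest P27 array for Fgf22 and Tgfa but not for Errfi1. Without P27 replicate 1, P27 replicate 2 or P23 replicate 1, 1 gene of the FGF list was higher and 2 lower, and no gene of the EGF list was lower. With P23 replicate 2 or P25 replicate 1 left out, 1 EGF gene was lower.

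Most TGF-beta and IGF genes did not pass the test, but the shares called lower, 26.9% and 35.7%, were above the 12.6% over all genes. The medians were -0.288 and -0.725, beside -0.10 over all genes. The shares called higher were 7.69% and 0%, beside 6.23%. In the TGF-beta list, 7 of 26 were lower and 2 higher, with Tgfb3 at 273, 268 and 400 in mid anagen, against 995 and 855 at P23 and 649 and 822 at P25 (-1.42 ± 0.20, adjusted p = 0.0066), and Ltbp1, which tethers latent TGF-beta to the matrix, lower by 1.08 ± 0.14 (adjusted p = 0.00535). Ccn2, a matricellular protein that TGF-beta induces, rose, with 1337, 1600 and 1750, against 806 and 906 at P23 and 803 and 733 at P25 (0.94 ± 0.14, adjusted p = 0.00712). In the IGF list, 5 of 14 were lower and none higher, with 1 lower without P27 replicate 1 or 2, 2 without P23 replicate 1 and 8 without P27 replicate 3. In the TGF-beta list leaving out P27 replicate 1 gave 4 lower and leaving out P27 replicate 2 gave 2 lower, and the higher count was 1 in both fits and in that without P23 replicate 1. Igfbp5, an IGF-binding protein, had 4397, 3779 and 3272, against 10796 and 7827 at P23 and 12089 and 8066 at P25 (-1.33 ± 0.20, adjusted p = 0.00727). Igf1 itself had 2239, 1428 and 2179, against 4538 and 3140 at P23 and 8539 and 3740 at P25 (-1.27 ± 0.35, adjusted p = 0.0412), a call lost in 5 of the 7 fits with 1 array left out (adjusted p = 0.0592 to 0.143).

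Most proliferation genes lay below 0, by small differences, and most did not pass the test. Above 0 lay 4 of 49 mitosis genes and 5 of 48 DNA replication genes, against 5088 of 12867 over all genes. The groups did not overlap, with mid anagen lower, in 21 and 17 of them, beside 23.7% of all genes. In both lists the median over members was lower on each P27 array than on every early anagen array. Of 49 mitosis genes 4 were lower and none higher (median -0.30), and of 48 DNA replication genes 8 were lower and 1 higher (median -0.33), shares of 8.16% and 16.7% beside the 12.6% over all genes. Of the mitosis genes 0 to 8, and of the replication genes 0 to 15, were lower with 1 array left out, with 0 in each list without P27 replicate 2, 8 mitosis genes without P27 replicate 3 or P25 replicate 1, and 15 replication genes without P27 replicate 3. Mki67, the usual proliferation marker, had signals of 5266, 5364 and 5794 at P27, against 5871 and 6312 at P23 and 5236 and 7232 at P25 (-0.16 ± 0.14, adjusted p = 0.429). Prc1, which bundles microtubules at cell division, fell by 0.69 ± 0.12 and the DNA ligase Lig1 by 0.59 ± 0.11, both lost without P27 replicate 2 (adjusted p = 0.05 and 0.0616). The single replication gene called higher was Tyms (0.73 ± 0.18, adjusted p = 0.0315, lost in 5 of 7 fits, adjusted p = 0.0525 to 0.112). A further list held 13 measured genes, namely cyclin-dependent kinase inhibitors, D cyclins, Myc family genes and Wee1. In it Cdkn1a alone was called, and it was higher (7.69%, near the 6.23% over all genes). Cdkn1a had 5687, 6014 and 4482, against 3583 and 4088 at P23 and 2527 and 3032 at P25 (0.72 ± 0.19, adjusted p = 0.0403, lost in 5 of 7 fits, adjusted p = 0.0586 to 0.14).

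Few genes of the general machinery of protein synthesis passed the test. None of 49 cytosolic ribosomal proteins and none of 46 ribosome biogenesis genes was called by limma, with medians of 0.01 and 0.00. At an unadjusted p below 0.05 there were 4 and 3, and the methods' ANOVA with Benjamini-Hochberg adjustment called 0 and 1. In addition, 1 of 37 proteasome subunits (2.7%) and 1 of 18 aminoacyl-tRNA synthetases (5.56%) were called higher, beside 6.23% over all genes. Of the 37 proteasome subunits 28 lay above 0 (median 0.145, beside -0.10 over all genes). The groups did not overlap in 13 with mid anagen higher and in 3 with mid anagen lower, beside 11.9% and 23.7% of all genes. Among 26 genes of amino acid transport and synthesis, 5 were higher (19.2%) and 2 lower (7.69%), beside 6.23% and 12.6% over all genes. Without P27 replicate 1 or 2 or P23 replicate 1 none was higher. Chac1, which breaks down glutathione, had signals of 2550, 2806 and 452 at P27, against 219 and 142 at P23 and 195 and 448 at P25 (2.70 ± 0.68, adjusted p = 0.0327, lost in 5 of 7 fits, adjusted p = 0.0608 to 0.12), while Aldh18a1, of proline synthesis, fell by 0.69 ± 0.11 (adjusted p = 0.00868). Of 17 glycolysis genes, 4 were lower (23.5%, beside 12.6% over all genes) and none was higher (median -0.47). The lower count was 0 without P27 replicate 2, 1 without P27 replicate 1 or P23 replicate 1, and 7 without P25 replicate 2. Among the lower genes was Pkm, by 0.67 ± 0.12 (adjusted p = 0.0134, lost without P27 replicate 2, adjusted p = 0.0577).

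Melanocytes of the matrix load pigment into the growing shaft. Of 23 pigment cell genes (median 0.77) 11 were higher (47.8%) and 1 lower (4.35%), beside 6.23% and 12.6% over all genes. Without P27 replicate 1 or 2, 0 were higher, and without P23 replicate 1, 4. Tyr, which encodes tyrosinase, had signals of 3385, 2151 and 1989 at P27, against 686 and 1033 at P23 and 471 and 1138 at P25 (1.63 ± 0.34, adjusted p = 0.0181), and Oca2, of the melanosome membrane, had 1226, 854 and 580, against 91 and 229 at P23 and 111 and 305 at P25 (2.38 ± 0.46, adjusted p = 0.0153). Gpnmb rose by 2.46 ± 0.45 (adjusted p = 0.013). These 3 calls were lost without P27 replicate 1 or 2, and that of Tyr without P23 replicate 1 (adjusted p = 0.0503 to 0.072), and no higher call of the list was kept. Sox10, a factor of both melanocytes and Schwann cells, fell and kept its call, at 117, 126 and 104, against 249 and 319 at P23 and 282 and 257 at P25 (-1.26 ± 0.13, adjusted p = 0.00306). Beside it, 6 of 14 Schwann cell genes were lower (42.9%, beside 12.6% over all genes) and none higher (median -0.67). Without P27 replicate 1, 3 were lower. The falls included the myelin genes Mbp (978, 1752 and 2038, against 5764 and 3723 at P23 and 4898 and 3677 at P25, -1.55 ± 0.28, adjusted p = 0.0131) and Pmp2, lower by 1.72 or more (adjusted p = 0.00723).

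Of 37 cornified epidermis genes 3 were higher (8.11%) and 7 lower (18.9%), beside 6.23% and 12.6% over all genes. With 1 array left out the higher count ran between 1 and 8 and the lower count between 2 and 13, the highest of both without P27 replicate 3 and the lowest without P27 replicate 1 or 2. The lower count was also 2 without P23 replicate 1, 3 without P23 replicate 2 or P25 replicate 1, and 4 without P25 replicate 2. Krt1 had signals of 4601, 5181 and 6968 at P27, against 12877 and 12054 at P23 and 13132 and 11291 at P25, and Lor, which encodes loricrin, had 11886, 12757 and 13293, against 22052 and 21071 at P23 and 23845 and 21956 at P25 (-0.81 ± 0.11, adjusted p = 0.00522). The groups did not overlap in either, although the probe set of Lor that the study used as a marker differed by -0.38 and missed the threshold (adjusted p = 0.0515). In the outer root sheath and basal list, 5 of 19 were higher (26.3%) and 2 lower (10.5%). Krt75, of the companion layer, had 10448, 11522 and 5423, against 1494 and 2584 at P23 and 1115 and 3265 at P25 (2.16 ± 0.42, adjusted p = 0.0157, lost without P27 replicate 1 or 2, adjusted p = 0.0661 to 0.067). Krt6a, a keratin of the companion layer and outer sheath, rose by 0.74 ± 0.13 (lost without P27 replicate 2, adjusted p = 0.0565) and Krt23 by 1.22 ± 0.22 (lost without P27 replicate 1, adjusted p = 0.0524), whereas the basal integrin Itgb4 fell by 0.70 ± 0.12 (adjusted p = 0.0102). The higher count of that list was 1 without P27 replicate 1 or 2 and 3 without P23 replicate 1, P23 replicate 2 or P25 replicate 1. Of 34 bulge and hair germ genes 4 were higher (11.8%) and 8 lower (23.5%), with a median of -0.08. These counts were 0 and 1 without P27 replicate 1 or 2, 2 and 3 without P23 replicate 1, 3 and 4 without P23 replicate 2, and 2 and 5 without P25 replicate 2. Of 19 sebaceous gland genes 2 were higher (10.5%) and 5 lower (26.3%), with a median of -0.44. None was lower without P27 replicate 1, P27 replicate 2, P23 replicate 1 or P25 replicate 1, 1 was without P23 replicate 2, and 8 were without P25 replicate 2. In the dermal papilla list, 5 of 29 were higher (17.2%) and 4 lower (13.8%). The higher count was 1 without P27 replicate 1, P27 replicate 2 or P23 replicate 1 and 2 without P25 replicate 2, and the lower count was 2 without P27 replicate 2 or P23 replicate 1 and 7 without P27 replicate 3.

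The dermis made the broadest decline. Of 56 genes of dermal fibroblasts and matrix, 38 were lower (67.9%, beside 12.6% over all genes) and none higher. The median was -0.95, and 11 calls were kept. Thy1, a surface protein of fibroblasts, had signals of 2075, 1650 and 2531 in mid anagen, against 7194 and 4579 at P23 and 8534 and 8085 at P25 (-1.75 ± 0.25, adjusted p = 0.00667). Mfap2, a microfibril protein, had 1748, 1319 and 1376, against 3562 and 3726 at P23 and 3661 and 3626 at P25 (-1.31 ± 0.13, adjusted p = 0.00242), and Eln, the elastin gene, had 1371, 932 and 1641, against 3472 and 4298 at P23 and 8188 and 3845 at P25. In all 3 genes the highest P27 array lay below the lowest early array. Elastic fibre genes were lower in 13 of 13 members, of which 11 were called, with Fbn2, a fibrillin, lower by 1.31 ± 0.16 (adjusted p = 0.00446). Twist2, which acts with Twist1 in dermal cells, fell by 1.10 ± 0.18 (adjusted p = 0.00888) and the matrix protein gene Tnxb by 1.22 ± 0.14 (adjusted p = 0.00381). Without P27 replicate 2, 11 of the 56 were lower, without P27 replicate 1, 19, without P23 replicate 1, 22, and without P27 replicate 3, 37.

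Collagen chains declined unevenly. Of 33 measured, 15 were lower (45.5%, beside 12.6% over all genes) and none higher (median -0.52). Of these calls 9 were kept, which was also the count without P27 replicate 2. Col5a1, a minor fibrillar chain, had signals of 4126, 2672 and 3709, against 7632 and 7274 at P23 and 9865 and 8280 at P25 (-1.25 ± 0.19, adjusted p = 0.00734). Col6a1, a chain of the microfibrillar collagen, had 6725, 5265 and 7165, against 11717 and 11987 at P23 and 14291 and 13942 at P25 (-1.03 ± 0.15, adjusted p = 0.00713), and all 3 type VI chains kept their calls. Col7a1, the anchoring fibril under the epidermis, fell by 1.27 ± 0.20 (adjusted p = 0.0091). Of the main fibrillar chains, Col1a1 fell by 0.52 ± 0.14 (adjusted p = 0.0394, lost without each of the 7 arrays, adjusted p = 0.0526 to 0.132) and Col3a1 had a difference of -0.33 ± 0.13 (adjusted p = 0.104). Serpinh1, the collagen chaperone, fell by 0.96 ± 0.13 (adjusted p = 0.00586).

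Leukocyte, vessel and muscle genes were lower as well. Of 34 genes of macrophages, mast cells and lymphocytes (median -0.94), 14 were lower (41.2%) and 1 higher (2.94%), beside 12.6% and 6.23% over all genes. The lower count was 4 without P27 replicate 1 or 2 and 6 without P23 replicate 1. The mast cell tryptase Tpsb2 had signals of 223, 238 and 326, against 840 and 672 at P23 and 645 and 516 at P25 (-1.35 ± 0.20, adjusted p = 0.00779), and Ms4a2, a chain of the IgE receptor, was lower by 1.79 or more (adjusted p = 0.0108). H2-Ab1, a class II antigen-presenting molecule, had 1403, 1176 and 1466, against 2728 and 2548 at P23 and 3563 and 2373 at P25 (-1.04 ± 0.17, adjusted p = 0.00927), and Itgax, of dendritic cells, fell by 1.04 ± 0.16 (adjusted p = 0.00821). S100a8, a neutrophil gene that stressed keratinocytes also make, was the member called higher (1.45 ± 0.34, adjusted p = 0.0265, lost in 5 of 7 fits, adjusted p = 0.0511 to 0.0881). All 22 endothelial genes lay below 0, whereas 5088 of all 12867 genes lay above it. Of the 22, 11 were called lower (50%, beside 12.6% over all genes). Among them was Egfl7, lower by 0.93 ± 0.17 (adjusted p = 0.0131, lost without P27 replicate 2, adjusted p = 0.0542). Only Sox18 in that list kept its call, and the count was 1 without P27 replicate 2, 4 without P27 replicate 1, 5 without P23 replicate 1, and 7 without P23 replicate 2 or P25 replicate 1. Red cell genes did not share 1 direction. Slc4a1, the anion exchanger of red cells, rose by at least 1.84 (adjusted p = 0.00503) and Bpgm, an enzyme of red cells, had 1757, 2118 and 1321, against 742 and 861 at P23 and 624 and 751 at P25 (1.20 ± 0.19, adjusted p = 0.00863), but Alas2, the red cell enzyme that begins haem synthesis, had a difference of -0.18 ± 0.24 (adjusted p = 0.62).

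Of 37 skeletal muscle genes (median -0.76) 20 were lower (54.1%) and 1 higher (2.7%), beside 12.6% and 6.23% over all genes. Tpm2, a tropomyosin, had signals of 5589, 5720 and 5843, against 11063 and 8871 at P23 and 12872 and 11133 at P25 (-0.93 ± 0.14, adjusted p = 0.00817), and was the member that kept its call. Des, the muscle intermediate filament, had 1370, 1162 and 2191, against 3763 and 3050 at P23 and 4941 and 3128 at P25 and lost its call without P27 replicate 1 or 2 (adjusted p = 0.0708 to 0.0724). Tnni1, the slow troponin I, was higher by at least 2.01 (adjusted p = 0.0136, lost without P27 replicate 1 or 2, adjusted p = 0.0542 to 0.0584). The lower count was 1 without P27 replicate 1 or 2, 4 without P23 replicate 1, 7 without P25 replicate 1 and 8 without P25 replicate 2. Of 24 adipocyte genes 3 were lower (12.5%, beside 12.6% over all genes) and none higher (median -0.48), and the lower count was 0 without P27 replicate 1 or 2, 1 without P23 replicate 1 or P25 replicate 1, and 7 without P27 replicate 3. The part of tissue proportions in the falls of single genes was not tested.

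**Figure D5:**
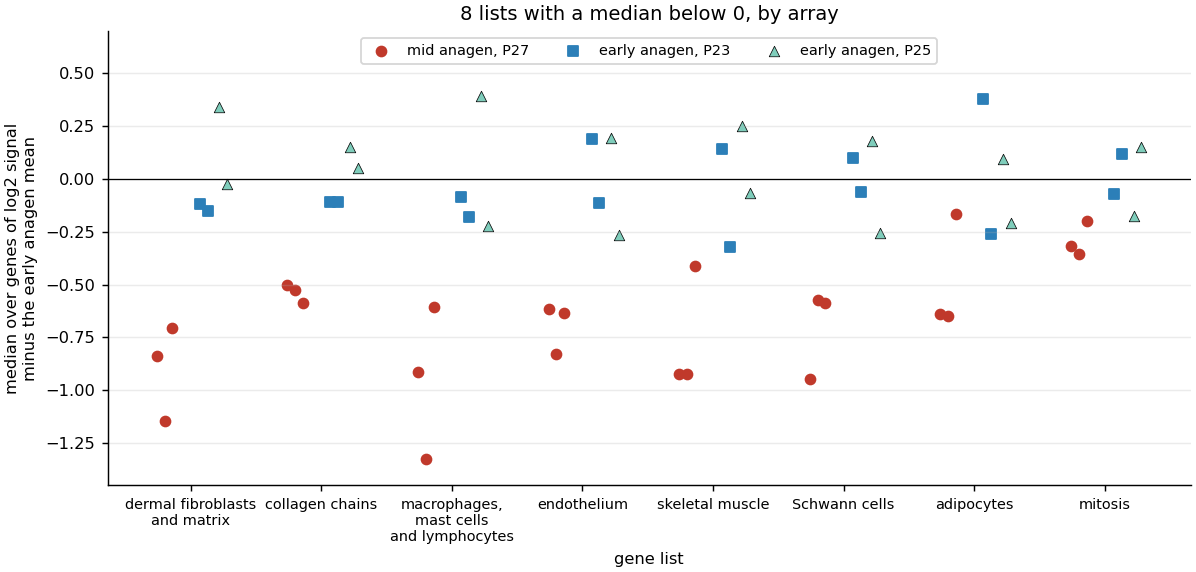
Median over the genes of a list of the log2 signal minus the gene's early anagen mean, for 3 mid anagen arrays (P27, circles) and 4 early anagen arrays (P23, squares; P25, triangles), in 8 lists with a negative median. For dermal fibroblasts and matrix the P27 arrays lie at -0.84, -1.15 and -0.70, against -0.12 and -0.15 at P23 and 0.34 and -0.02 at P25, and the P27 arrays lie below all 4 early anagen arrays.

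Clock genes, the subject of the study, changed in both directions between the groups. All skin was taken in the same part of the day, from noon to late afternoon, but no hour is given for single mice. These genes oscillate over the day, so a difference in hour within that window cannot be told apart from a difference between the phases. Of 17 clock genes, 4 were higher (23.5%) and 3 lower (17.6%), beside 6.23% and 12.6% over all genes. Per2, a period gene of the negative limb, had signals of 301, 333 and 583, against 145 and 124 at P23 and 108 and 141 at P25 (1.59 ± 0.24, adjusted p = 0.00789), and Nfil3, which competes with DBP at its sites, had 986, 873 and 1078, against 405 and 586 at P23 and 481 and 387 at P25 (1.09 ± 0.17, adjusted p = 0.0088). Nr1d1, a repressor of BMAL1 transcription, had 348, 390 and 359, against 840 and 592 at P23 and 756.4 and 706.2 at P25 (-0.97 ± 0.14, adjusted p = 0.00734). Npas2 was at 17.7, 33.8 and 48.4, against 166 and 126 at P23 and 136 and 134 at P25. The groups did not overlap in these 4 genes, whereas Dbp overlapped (0.54 ± 0.24, adjusted p = 0.144). The higher count was 2 without P27 replicate 2, P23 replicate 1 or P25 replicate 2. Of 25 immediate early genes, 3 were higher (12%) and 1 lower (4%). The higher count was 0 without P27 replicate 1 or 2 and 1 without P23 replicate 1. The lower count was 0 without any of these 3 or without P23 replicate 2 or P25 replicate 2. Of 14 glucocorticoid-induced genes 1 was higher (7.14%, near the share over all genes). However, 13 of the 14 lay above 0 (median 0.45), against 5088 of 12867 over all genes (median -0.10).

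Values of 2 of these lists 5 and 3 days after depilation, each in 2 arrays, are given beside these with no test. That cycle was induced with a mixture of wax and rosin in older mice, and these arrays came from females only. The inner root sheath keratins differed by a median of 6.80 between day 5 and day 3 after depilation and of 1.58 between mid and early anagen. For keratin-associated proteins the 2 arrays of day 5 did not agree. Relative to the early anagen mean, the median over the 37 members was -2.19 and 0.83 on the arrays of day 5, against -1.87 and -2.19 on those of day 3, so that the first day 5 array lay at the level of day 3 and no difference is read from these values. The days after depilation do not match the 4 natural days in time, so the values stand side by side only.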

How the data were processed

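Total RNA from dorsal skin of 1 mouse per array was measured on the Affymetrix platform Mouse Genome 430 2.0. The authors deposited a linear MAS 5.0 signal (intensity) per probe set, and the scaling between arrays was kept as deposited. Values under the 25th percentile of all values (34.6) were set to it, and log2 was taken. Probe sets above their own array's median on at least 3 of the 33 arrays were tested with limma 3.58.1 in R 4.3.3 on the 7 arrays, with Benjamini-Hochberg adjustment over all 26988 probe sets and a threshold of 0.05. No column of the table was left unmapped. Probe sets were named from the platform annotation, in which 9160 had no symbol and 932 several, and each gene was taken from its brightest probe set. Of the 12867 genes, 3182 rest on a probe set that may also bind other transcripts, such as Krt36, Krt82 and Krtap11-1, and near-identical family members cannot be told apart.

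Named genes were the 10 largest rises and falls among kept calls without overlap, the kept members with the smallest p in each of 45 gene lists (up to 6), members called against their list, and members that describe a role. Members and lists were chosen with earlier results of these data known, and the split of lists by role after the values were seen. Lists are described by counts and medians with no test. Differences with an array under the floor are given as bounds. The fit was first tested on simulated data. Alternatives were another floor, filter, scaling, design, probe set choice, the methods' ANOVA, and leaving out each array. The number of arrays limits the precision.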

Additional observations from a re-analysis of the deposited data

Results flagged for a closer look

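Of the 126 genes for which values were sought, 9 had 1 early anagen array set apart from the other 3 (the gap to the nearest array, relative to the range of the 4, exceeded Dixon's critical value). Chance flags about 1 in 20 such groups, and P23 and P25 are different days. Twist1 was at 1145.4 on P25 replicate 1, against 615.2 to 651.3 on the others, and Sox18 at 1269 on the same array, against 1747.1 to 1861.3. Tyms was at 84.8 there, against 125.7 to 131.7. On P25 replicate 2, Alox12b was at 417.1, against 520.4 to 543.7, Padi1 at 219.3, against 90.4 to 98.2, and Fgf11 at 133.6, against 218.6 to 233.5. On P23 replicate 1, Fbn2 was at 1193.3, against 1335.5 to 1363.8, and S100a8 at 430.1, against 228.6 to 241.4. Alas2 was at 202.6 on P23 replicate 2, against 175.9 to 180.2. The falls of Twist1, Sox18, Alox12b, Fgf11 and Fbn2 kept their calls without the array named here.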

How the results depend on the processing

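Against 5320 probe sets and 2421 genes called in the comparison of mid with early anagen, no filter on low values gave 3079 and 1333, early anagen as P25 alone 801 and 178, as P23 alone 2232 and 814, and the methods' ANOVA after Benjamini-Hochberg 2524 and 1149. Sex as a covariate gave 7477 and 3458 and the joint fit of all 33 arrays 7286 and 3413. Median centring of the arrays gave 5404 and 2444, and quantile normalization 5639 and 2632. Leaving out 1 array gave 1580 to 5867 probe sets and 524 to 2805 genes. The lowest came without P27 replicate 2, then P27 replicate 1 (1748 and 616) and P23 replicate 1 (2809 and 1086), and the highest without P27 replicate 3. The share of higher calls among probe sets was 53% and was 78.5% with P25 alone, 66.7% with P23 alone and 67% without P27 replicate 2, and among genes it was 33.1% and 46.8% when each gene was taken from its most variable probe set. Of the probe sets called, 1 changed sign with a floor of 64 and none under the other settings. Replicate numbers were not used to pair the samples. Same-numbered arrays correlated in their deviations from the day means at -0.136 to 0.16. With 2 arrays at P23 and 2 at P25 the deviations within a day mirror each other, so these values cannot show whether samples were paired. With the replicate block 5747 probe sets and 2800 genes were called. Of the median differences of lists, 963 moved by less than the standard deviation of the list's median over the 3 P27 arrays and 72 by more. That bar is wide where P27 replicate 3 stood apart, as in keratin-associated proteins (6.13, 6.305 and 2.759). Of the results for single genes, 2499 kept their status, 378 lost a call, 2 gained one and 1 changed sign without a call. With so few arrays, the signal near the floor limits what can be said of genes that start at background.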

Other observations

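Some groups outside the lists were seen among the kept calls, chosen after their values were known and so without a test. Genes of the secretory pathway that collagen and other matrix proteins pass through lay among the falls: the 14 collected (Kdelr2, Kdelr3, Sec24d, Rrbp1, Ckap4, Tram2, Creb3l1, Ssr1, Ergic1, Copz2, Fkbp11, Crtap, P3h3 and Serpinh1) had a median difference of -1.07 and a range of -1.80 to -0.76. Kdelr3 had signals of 805, 447 and 623 in mid anagen, against 2047 and 2018 at P23 and 2622 and 1862 at P25. Of the 6747 probe sets with the lowest mean signals (up to 174), 1179 were called higher and 413 lower, whereas of the 6747 with the highest (from 1070), 455 were higher and 693 lower.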
